A study of Mus musculus with 30 samples.

Results

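Marker genes of mesoderm, endoderm and trophectoderm were followed in mouse embryonic stem (ES) cells over 6 hours of a change of medium, of doxycycline, of DAPT or of low oxygen. The set held 37 genes taken by name, of which 36 had at least 1 probe on the Illumina arrays, 43 of the 24611 probes in all. T (brachyury) was not analysed here. The members fell into 5 lineage groups: regulators of the primitive streak and early mesoderm (Eomes, Mixl1, Mesp1, Gsc, Evx1, Wnt3, Tbx6 and Foxc1), genes of lateral, vascular and blood mesoderm (Hand1, Kdr, Tal1, Lmo2, Gata1 and Gata2), endoderm regulators (Gata4, Gata6, Sox7, Sox17, Foxa1, Foxa2 and Hnf4a), products of endoderm (Afp, Ttr, Dab2, Lama1, Lamb1, Col4a1 and Sparc), and trophectoderm genes (Gata3, Cdx2, Tfap2c, Krt8, Krt18, Elf5, Esx1 and Ascl2).

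The 28 samples came from male ES cells of the Ainv15 line and formed 7 groups of 4. Ainv15 cells carry a doxycycline-responsive promoter for an inserted gene. As known of the study, that gene is the intracellular domain of Notch1, the part of the receptor that enters the nucleus and activates transcription, although the labels do not name it. Cells of all 7 groups are of this line, and no group without the inserted gene received doxycycline. The groups were N2B27 medium under 1% oxygen (1% O2), N2B27 under 1% oxygen with doxycycline at 2 ug/ml (1% O2+Dox), N2B27 under 1% oxygen with DAPT (1% O2+DAPT), N2B27 with doxycycline at ambient oxygen (Dox), N2B27 with DAPT at ambient oxygen (DAPT), plain N2B27, the study's control condition, and ES cell medium (ESC). DAPT inhibits gamma-secretase, the protease that frees the Notch intracellular domain, and was used at 2.5 ng/ml (the unit in the labels) with 4 hours of DAPT in ES cell medium beforehand. ES cell medium contains serum and leukaemia inhibitory factor (LIF), and N2B27 is a serum-free medium. The replicates are numbered 1 to 4 and called biological in the labels. Nothing in the labels tells whether they were separate cultures, so a p-value here reflects the spread among 28 samples that could be partly technical.

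ES cells are kept as a stand-in for the inner cell mass and epiblast of the early embryo. Trophectoderm, which builds the placenta, is set apart first under Cdx2, Gata3 and Tfap2c. Primitive endoderm, under Gata6, Gata4, Sox17 and Sox7, forms the extraembryonic yolk sac layers, whose parietal and visceral cells lay down basement membrane and secrete carrier proteins. Mesoderm and definitive endoderm come later from the primitive streak, where Wnt and Nodal signals switch on Eomes, Mixl1, Evx1 and their targets. Cultures of ES cells can hold a minority of cells that have moved toward any of these fates. In such bulk RNA a change in the number of those cells and a change in RNA per cell cannot be told apart.

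Precision is limited by the number of arrays, which carry no read depth. Mean signals of the arrays lay between 645 and 862, and 27.2% to 29.9% of the signals on an array were below 0. A probe was counted as above background on a sample where its signal passed a limit set on that array from the spread of its negative signals, which lay between 29.3 and 41.6 signal units and left 47.7% to 49.9% of probes above it. Levels are given as the log2 of the background-corrected, quantile-normalized signal, and they compare samples for 1 probe and not probes with each other. Of 12 ES cell markers 10 had a probe, and all 10 were above background on all 28 samples. Of the 11 neural progenitor markers with a probe, 1 was above background on all samples, and Fabp7, Gfap, Map2, Olig2, Pax6 and Sox1 on none. Of the 12 fibroblast or feeder markers, all with a probe, 4 were above background on all samples, and Lum, Postn and S100a4 on none.

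The first question was which lineage genes could be measured at all. Of the 36 members with a probe, 16 were above background on all 28 samples, 8 on some of them and 12 on none. Each lineage group held members of all 3 kinds. Among streak and early mesoderm genes, Eomes, a T-box factor needed for streak mesoderm and definitive endoderm and also for trophoblast, and Tbx6, a T-box factor of presomitic mesoderm, were above background on all samples. Evx1, a homeobox gene of the posterior streak, was above it on 17 samples, Wnt3, the signal that starts streak formation, on 24, and Gsc, a homeobox gene of the organizer, on 9. The streak homeobox gene Mixl1, the nascent mesoderm factor Mesp1 and the forkhead gene Foxc1 were above it on none.

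Of the mesoderm genes for blood and vessels, the blood stem cell regulators Tal1 and Gata2 were above background on all samples and Lmo2, a protein that bridges Tal1 and Gata factors, on 24. The vascular receptor gene Kdr, the erythroid factor gene Gata1 and Hand1, a factor of lateral mesoderm and trophoblast giant cells, were above it on none. Gata4, Gata6, Sox17 and Hnf4a, a nuclear receptor of visceral endoderm, were above background on all samples and Sox7 on 19, while the forkhead genes Foxa1 and Foxa2 were not on any. Among endoderm products, the endocytic adaptor gene Dab2, the basement membrane genes Lamb1 and Col4a1 and the matrix protein gene Sparc passed on all samples and Lama1 on 6. The secreted proteins that mark visceral endoderm, encoded by Afp and Ttr, were above background on no sample.

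In the trophectoderm group, Cdx2, Tfap2c (which encodes the transcription factor AP-2 gamma), and the simple-epithelium keratin genes Krt8 and Krt18, which encode partners of 1 filament, were above background on all 28 samples. Gata3 passed on 20 and Ascl2, a factor of the ectoplacental cone, on 5. The trophoblast stem cell gene Elf5 and the placental homeobox gene Esx1 passed on none. The count of members above background on any sample was 24 at the 98th percentile used, 27 at the 95th and 24 at the 99th. The highest signal of the 12 genes on any sample ran from -5.5 for Foxc1 to 35.6 for Foxa1. Probes of 1 gene could differ. The second probes of Tbx6 and Krt8 were above background on 0 samples and that of Gata4 on 1, whereas all 3 probes of Tfap2c were above it on all 28. Both probes of Foxa2 and both of Elf5 were on none.

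**Figure D1:**
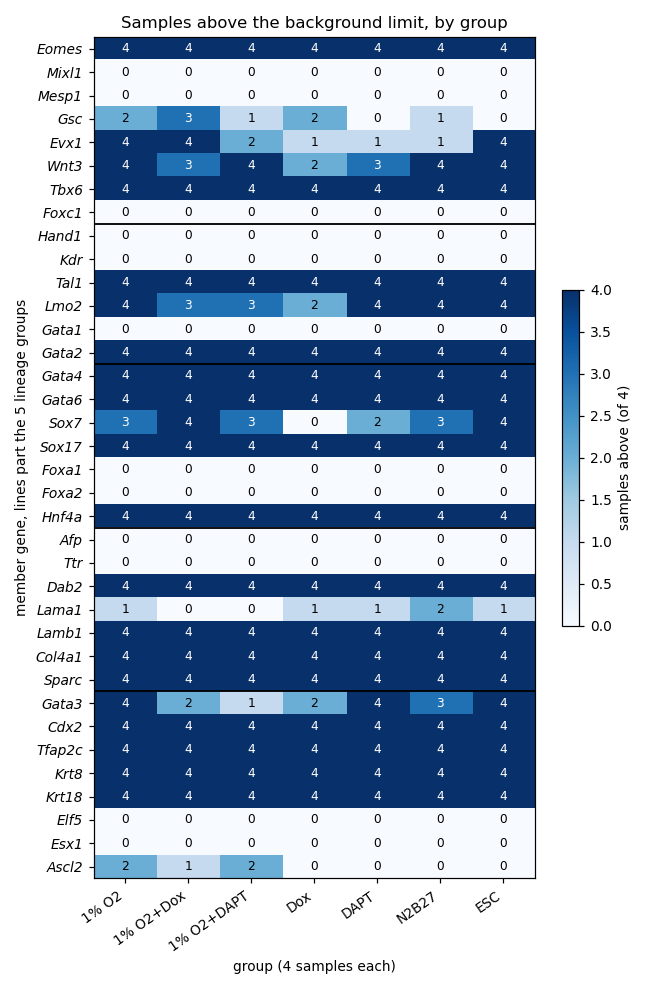
Number of samples of each group, out of 4, in which the member's probe was above the background limit. The probe of each gene with the most samples above the limit is shown, and ties go to the highest median signal. Rows are the 36 members with a probe, parted by lines into the 5 lineage groups, and columns are the 7 groups. Ascl2 passed on 5 samples, all of them under 1% oxygen, and Evx1 on all 4 samples of 1% O2, 1% O2+Dox and ESC, on 2 of 4 in 1% O2+DAPT and on 1 of 4 in Dox, DAPT and N2B27.

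Of these members 24 passed the filter on dim probes (above the array's median on at least 4 of 28 samples) and were tested among 9809 genes. They are the same 24 that were above background on any sample. A member can pass that filter through the group in which it is high, so the counts below describe the members that could be measured, not the whole set of 37. Ascl2 passed it through 5 samples, all under 1% oxygen, with 0 of 16 at ambient oxygen, while the other 23 members would also pass on the ambient samples. The other 12 members gave no test. Changes are log2 fold changes from 1 limma model over all samples, with the standard error (SE) of the model, and a gene was called where its Benjamini-Hochberg adjusted p over all tested genes was under 0.05. Samples with the same replicate number varied together across groups. The same contrasts were therefore also fitted with the replicate number as a block, and that value is given where it changes the call.

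The medium change asked how lineage genes differed after 6 hours in N2B27 and in ES cell medium. Whole media were compared, and the part of serum or LIF was not tested. The members that fell were the blood and vascular regulators Tal1 and Gata2. Tal1 had log2 levels of 7.09, 7.20, 7.02 and 7.27 in N2B27 (replicates 1 to 4), against 7.65, 7.71, 7.57 and 7.85 in ESC. Its log2 fold change was -0.55 ± 0.14 SE (limma, adjusted p = 0.043; 0.00173 with the replicate block). Gata2 had 8.33, 8.28, 8.17 and 7.96 in N2B27 and 8.60, 8.84, 8.88 and 8.71 in ESC, a log2 fold change of -0.57 ± 0.15 (adjusted p = 0.0444; 0.000146 with the block). For both genes every N2B27 sample lay below every ESC sample. Lmo2, the third measured gene of that group, averaged 6.76 ± 0.14 in N2B27 and 6.76 ± 0.11 in ESC (SD, n = 4 each).

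Without the block, 2 of 24 members were thus called, both lower, where 1.94% of all tested genes were called and 0.714% were called lower. Both calls are close to the threshold in the fit without the block. There they were lost in each of the 8 fits that left out 1 sample of either group. The adjusted p rose to 0.138 for Tal1 (without ESC replicate 4) and 0.168 for Gata2 (without N2B27 replicate 4). No sample was left out of the fit with the block. The median log2 fold change of the 24 members was -0.12, with 6 of them above 0, against 0.01 over all tested genes.

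With the replicate block 7 members were called, 1 higher and 6 lower, at a background of 8.37% of genes higher and 7.69% lower. The members added by the block were Tfap2c, higher in N2B27, and Evx1, Wnt3, Sox7 and Gata3, lower in N2B27. Evx1 had 6.89, 6.01, 5.39 and 5.49 in N2B27, against 7.36, 6.81, 6.30 and 6.37 in ESC. It was lower in N2B27 in 4 of 4 pairs by -0.76 ± 0.40 in the model without the block (adjusted p = 0.516; 0.000198 with it), and above background in 1 of 4 N2B27 samples and 4 of 4 ESC samples. Wnt3 had 6.63, 6.50, 6.21 and 6.21 in N2B27 and 7.14, 6.71, 6.66 and 6.40 in ESC (-0.34 ± 0.18, adjusted p = 0.516; 0.036 with the block). Each N2B27 sample of both genes lay below the ESC sample of its own number, while the groups overlapped. Replicate 1 was the highest of its group in both media for both genes.

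Sox7, an endoderm regulator, had 6.28, 6.29, 6.02 and 6.37 in N2B27 and 6.51, 6.82, 6.83 and 6.54 in ESC, with no overlap (-0.44 ± 0.18, adjusted p = 0.31; 0.0383 with the block). Gata3, which acts in trophectoderm and later lineages, had 6.89, 6.42, 6.09 and 6.18 in N2B27 and 6.97, 6.51, 6.89 and 7.00 in ESC (-0.44 ± 0.17, adjusted p = 0.247; 0.0134 with the block). Its difference was unequal between replicates, -0.08 over replicates 1 and 2 and -0.81 over replicates 3 and 4. Tfap2c had 11.94, 11.77, 11.97 and 12.37 in N2B27, against 11.47, 11.38, 11.69 and 11.87 in ESC (0.41 ± 0.17, adjusted p = 0.309; 1.52e-05 with the block). Its other probes gave 0.40 ± 0.13 and 0.37 ± 0.14.

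**Figure D2:**
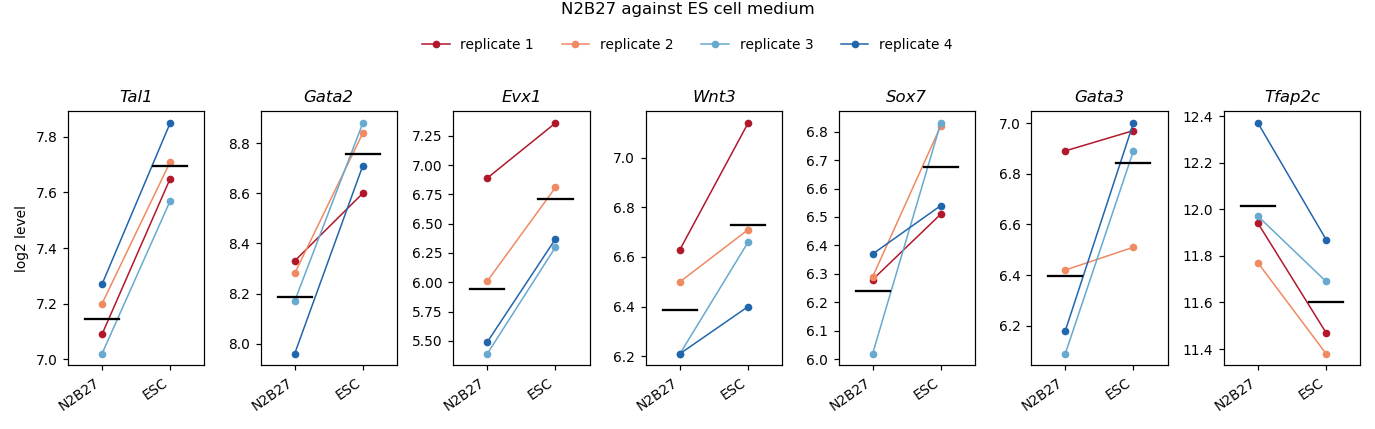
Log2 level of 7 members in N2B27 (left) and ES cell medium (right). Points are samples, lines join samples of the same replicate number, and black bars are group means. Every line falls toward N2B27 for Tal1, Gata2, Evx1, Wnt3, Sox7 and Gata3 and rises toward N2B27 for Tfap2c.

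The other members of each lineage stayed nearer to 0 in this comparison. Of the streak genes, Eomes differed by 0.11 and Tbx6 by -0.02. Gsc was above background in 1 of 4 N2B27 samples and 0 of 4 ESC samples, so no fold is given. Among endoderm regulators Gata4 (-0.06), Gata6 (0.07), Sox17 (-0.14) and Hnf4a (0.18) and among products Dab2 (-0.09), Lamb1 (-0.22), Col4a1 (0.02), Sparc (-0.27) and Lama1 (0.21) did not pass with or without the block, nor did the trophectoderm genes Cdx2 (-0.21), Krt8 (-0.15) and Krt18 (-0.13). Ascl2 was above background in neither group. Of further genes of these lineages, 0 of 21 mesoderm, 1 of 16 endoderm and 1 of 16 trophectoderm genes tested were called without the block. They were Otx2, a regulator of the anterior visceral endoderm and the epiblast (-0.75 ± 0.17, adjusted p = 0.0171), and Htra1, a secreted serine protease of the placenta among other tissues (-1.0 ± 0.13, adjusted p = 0.000132), both lower in N2B27. With the block 6 of 21 mesoderm genes were called (2 higher and 4 lower), 4 of 16 endoderm genes (1 higher and 3 lower) and 6 of 16 trophectoderm genes (all lower). Of all tested genes 1.94% were called without the block, and 8.37% were higher and 7.69% lower with it. Of 8 tested fibroblast markers 0 were called without the block and 3 with it, all lower in N2B27 as were 6 of the 7 members called with it: Thy1 (-0.52 ± 0.28, adjusted p = 0.545; 0.00433 with the block), Acta2 (-0.23 ± 0.42, adjusted p = 1; 0.0109) and Dcn (-0.60 ± 0.41, adjusted p = 0.719; 0.00637). Their part in the members' changes was not tested.

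Doxycycline was compared with N2B27 at ambient oxygen and with 1% O2 under low oxygen. No member was called in either comparison without the block, where 0.336% and 0.194% of all genes were called. The count of members at an unadjusted p under 0.05 was 0 at ambient oxygen and 1 under 1% oxygen. Of all tested genes 2.32% and 2.46% had such a p, so these counts do not set the members apart. With the block, Cdx2 and Tfap2c, both trophectoderm regulators, were lower with doxycycline in both comparisons, 2 of 24 members at a background of 0.714% of genes lower at ambient oxygen and 0.724% under 1% oxygen.

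Tfap2c had 11.65, 11.46, 11.68 and 11.90 in Dox, against 11.94, 11.77, 11.97 and 12.37 in N2B27 (-0.34 ± 0.17, adjusted p = 1; 0.000497 with the block). Under low oxygen it had 11.27, 11.35, 11.49 and 11.81 in 1% O2+Dox and 11.78, 11.56, 11.86 and 12.25 in 1% O2 (-0.38 ± 0.17, adjusted p = 1; 0.000146 with the block). Each doxycycline sample was lower than its own-numbered control, 8 of 8 pairs in all, although the groups overlapped. Averaged over both oxygen levels the log2 fold change was -0.36 ± 0.12 (adjusted p = 0.433; 9.31e-07 with the block).

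The other Tfap2c probes ran the same way, with means of -0.27 ± 0.09 and -0.31 ± 0.10 over both oxygen levels (adjusted p with the block over all probes 0.00856 and 0.00137). At ambient oxygen they gave -0.33 and -0.31 and under 1% oxygen -0.21 and -0.30, where their adjusted p with the block was 0.369 and 0.072.

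Cdx2, the homeobox factor that specifies trophectoderm, had 7.93, 7.19, 7.70 and 7.53 in Dox and 8.24, 7.57, 8.16 and 7.73 in N2B27 (-0.34 ± 0.24, adjusted p = 1; 0.0104 with the block). Under low oxygen it had 8.11, 7.36, 7.68 and 7.34 in 1% O2+Dox and 8.36, 7.51, 8.16 and 7.93 in 1% O2 (-0.37 ± 0.24, adjusted p = 1; 0.00548 with the block). It was again lower in 8 of 8 pairs, with a spread between replicate numbers wider than the difference. The mean over both oxygen levels was -0.35 ± 0.17 (adjusted p = 1; 6.66e-05 with the block).

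**Figure D3:**
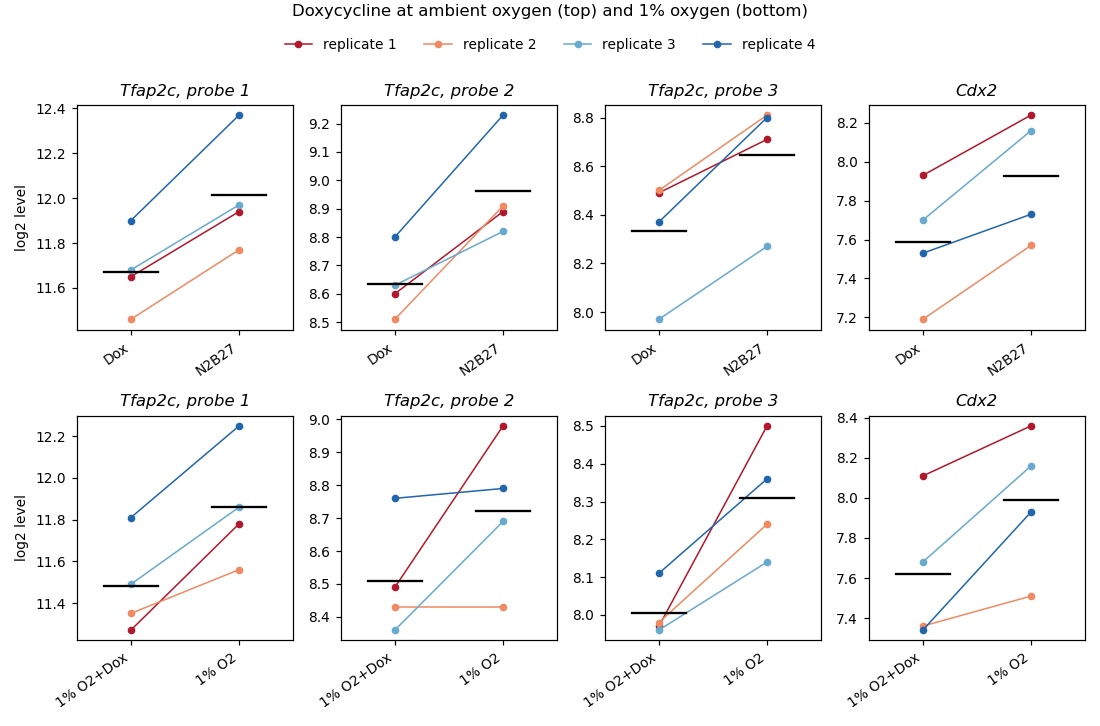
Log2 level of the 3 Tfap2c probes and of Cdx2 with doxycycline (left of each panel) and without it (right), at ambient oxygen in the top row and under 1% oxygen in the bottom row. Points are samples, lines join the same replicate number, and black bars are group means. Tfap2c probe 1 is the probe with the highest mean, used in the test, and for it and Cdx2 all 8 lines fall toward doxycycline.

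In the mean over both oxygen levels 0 of 24 members were called, at 0.622% of all genes, and 3 with the block, at 1.76% higher and 1.87% lower. The member added there was Eomes, higher with doxycycline in 8 of 8 pairs. It had 8.15, 7.63, 7.45 and 7.40 in Dox, against 8.10, 7.39, 7.33 and 7.02 in N2B27. Under low oxygen it had 9.26, 8.73, 8.51 and 7.99 in 1% O2+Dox, against 8.59, 8.34, 8.27 and 7.90 in 1% O2. The log2 fold change was 0.27 ± 0.18 (adjusted p = 1; 0.0254 with the block), and the groups overlapped throughout. Lmo2 lay lower in every Dox sample (6.34, 6.42, 6.27 and 6.24) than in any N2B27 sample (6.92, 6.83, 6.64 and 6.64), but did not pass with or without the block (-0.44).

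No difference between the oxygen levels was detected in a member's response to doxycycline or to DAPT. The interaction called 0 of 24 members for doxycycline and 0 of 24 for DAPT, with or without the block. Over all genes it called 0.0102% for doxycycline (0.0204% with the block) and 0% for DAPT in both fits. Among the members it had a lowest unadjusted p of 0.17 for doxycycline and 0.175 for DAPT in limma without the block, so 0 members had an unadjusted p under 0.05, and 1 in each did with the block. Of all tested genes 0.581% (doxycycline) and 0.591% (DAPT) had such a p without the block, and 4.06% and 4.26% with it. DAPT itself called 0 of 24 members at ambient oxygen and 0 of 24 under 1% oxygen, with 0 at an unadjusted p under 0.05 in both and 2 in both with the block. Of all genes 0% were called either way, and with the block 5.71% at ambient oxygen and 6.06% under 1% oxygen had an unadjusted p under 0.05. Without the block 0.836% and 1.07% had one. Over the 16 members above background on all samples, the log2 fold changes with DAPT ranged from -0.17 to 0.17 at ambient oxygen and from -0.17 to 0.13 under 1% oxygen. Of further genes of these lineages, Cxcr4, a chemokine receptor used as a marker of definitive endoderm, was higher with doxycycline over both oxygen levels (0.35 ± 0.07, adjusted p = 0.0193), 1 of 16 endoderm genes, and 0 of 21 mesoderm and 0 of 16 trophectoderm genes were called without the block. With it 4 of 21 mesoderm genes (2 higher and 2 lower), 3 of 16 endoderm genes (2 higher and 1 lower) and 2 of 16 trophectoderm genes (1 higher and 1 lower) were called. Of all tested genes 0.622% were called without the block, and 1.76% were higher and 1.87% lower with it. In Dox against N2B27 and over both oxygen levels, 4 neural progenitor markers were tested and 0 were called without the block. Their median log2 fold changes were 0.07 and 0.03. With the block 1 was called higher in each, Nes, which encodes the filament protein nestin. Its change was 1.02 ± 0.30 in Dox against N2B27 (adjusted p = 0.385; 0.00607 with the block) and 0.88 ± 0.21 over both oxygen levels (adjusted p = 0.0577; 0.000345 with the block), larger in size than those of Tfap2c, Cdx2 and Eomes. Its part in those was not tested.

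Low oxygen was compared with ambient oxygen in N2B27, in Dox and in DAPT, and as the mean over the 3 media. In that mean, some of the measured regulators of the streak and of endoderm were called higher under 1% oxygen. The members called higher were Eomes, Evx1 and Tbx6 of the streak, Gata6, Sox7 and Sox17 of endoderm, the type IV collagen gene Col4a1 and the trophoblast gene Ascl2. Tal1 was lower. That made 9 of 24 members, 8 higher and 1 lower, where 17.6% of all tested genes were called, 7.76% higher and 9.83% lower. As the members were chosen with earlier results of these data known, such counts are no independent test of them. With the block 11 were higher and 3 lower, where 17% of all genes were higher and 24.5% lower. By lineage, 3 of 5 streak genes, 0 of 3 blood and vascular genes, 3 of 5 endoderm regulators, 1 of 5 endoderm products and 1 of 6 trophectoderm genes were called higher. The last was Ascl2, which had to be high under 1% oxygen to be tested at all. Without it 7 of 23 members and 0 of 5 trophectoderm genes were called higher. The median log2 fold change of the members was 0.08 with 20 of 24 above 0, against -0.02 over all tested genes. Of the 16 members above background on all samples, 5 were called higher and 1 lower, and of the 7232 such genes tested, 594 and 876.

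Eomes had the largest change of the members. It had 8.59, 8.34, 8.27 and 7.90 in 1% O2, against 8.10, 7.39, 7.33 and 7.02 in N2B27 (0.82 ± 0.25, adjusted p = 0.07; 1.82e-06 with the block). With doxycycline it had 9.26, 8.73, 8.51 and 7.99 in 1% O2+Dox and 8.15, 7.63, 7.45 and 7.40 in Dox (0.97 ± 0.25, adjusted p = 0.0263). With DAPT it had 8.66, 8.17, 8.12 and 7.84 in 1% O2+DAPT and 7.75, 7.35, 7.15 and 7.02 in DAPT (0.88 ± 0.25, adjusted p = 0.048). All 12 pairs of the same replicate number were higher under 1% oxygen, and in DAPT the groups did not overlap. In every group replicate 1 had the highest level. The mean over the 3 media was a 1.85-fold rise (0.89 ± 0.14, adjusted p = 7.95e-05), 0.90 over replicates 1 and 2 and 0.88 over replicates 3 and 4.

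Eomes was the member called within single media without the block, 0 of 24 in N2B27, 1 of 24 in Dox and 1 of 24 in DAPT, where 4.12%, 4.07% and 4.04% of all genes were called. With the block 8, 9 and 7 members were called, where 20%, 19.5% and 21% of all genes were. In the model without the block, the calls of Eomes in Dox and in DAPT were each lost in 6 of 8 fits without 1 sample. The adjusted p rose to 0.133 (without 1% O2+Dox replicate 1) and 0.18 (without 1% O2+DAPT replicate 1). With the block and all samples it was 1.46e-07 in Dox and 6.51e-07 in DAPT. In N2B27 the adjusted p of Eomes without the block ranged from 0.0195 to 0.228 over the fits without 1 sample, passing in 2 of 8.

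Evx1 had 7.47, 6.73, 6.42 and 6.34 in 1% O2, against 6.89, 6.01, 5.39 and 5.49 in N2B27 (0.79 ± 0.40, adjusted p = 0.389; 9.39e-05 with the block). Its lowest, median and highest levels over the 3 media were 5.82, 6.43 and 7.47 under 1% oxygen and 5.11, 5.86 and 6.89 at ambient oxygen, with 12 of 12 pairs higher. It was above background in 10 of 12 samples under 1% oxygen and in 3 of 12 at ambient oxygen. The mean change was 0.68 ± 0.23 (adjusted p = 0.0416, and 1.16e-07 with the block). In the model without the block the call was lost in 15 of 24 fits without 1 sample, with adjusted p up to 0.083 (without 1% O2+DAPT replicate 1).

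Tbx6 moved less. It had 7.20, 7.25, 7.51 and 7.82 in 1% O2 and 7.29, 7.04, 7.03 and 7.50 in N2B27. In the 3 media together it spanned 7.19, 7.46 and 7.82 (lowest, median and highest) under 1% oxygen and 7.03, 7.16 and 7.50 at ambient oxygen, higher in 11 of 12 pairs (0.23 ± 0.08, adjusted p = 0.0365). The change was 0.08 over replicates 1 and 2 and 0.38 over replicates 3 and 4. In the model without the block the call was lost in 12 of 24 fits without 1 sample, with adjusted p up to 0.0696 (without N2B27 replicate 2). With the block and all samples the adjusted p of Tbx6 was 0.00195. Gsc passed with the block only. It had 6.59, 6.30, 5.72 and 5.96 in 1% O2 and 6.29, 6.08, 5.37 and 5.95 in N2B27, and the mean over the 3 media was 0.17 ± 0.11 (adjusted p = 0.357; 0.0343 with the block). Wnt3 differed by 0.09 and did not pass in either fit.

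**Figure D4:**
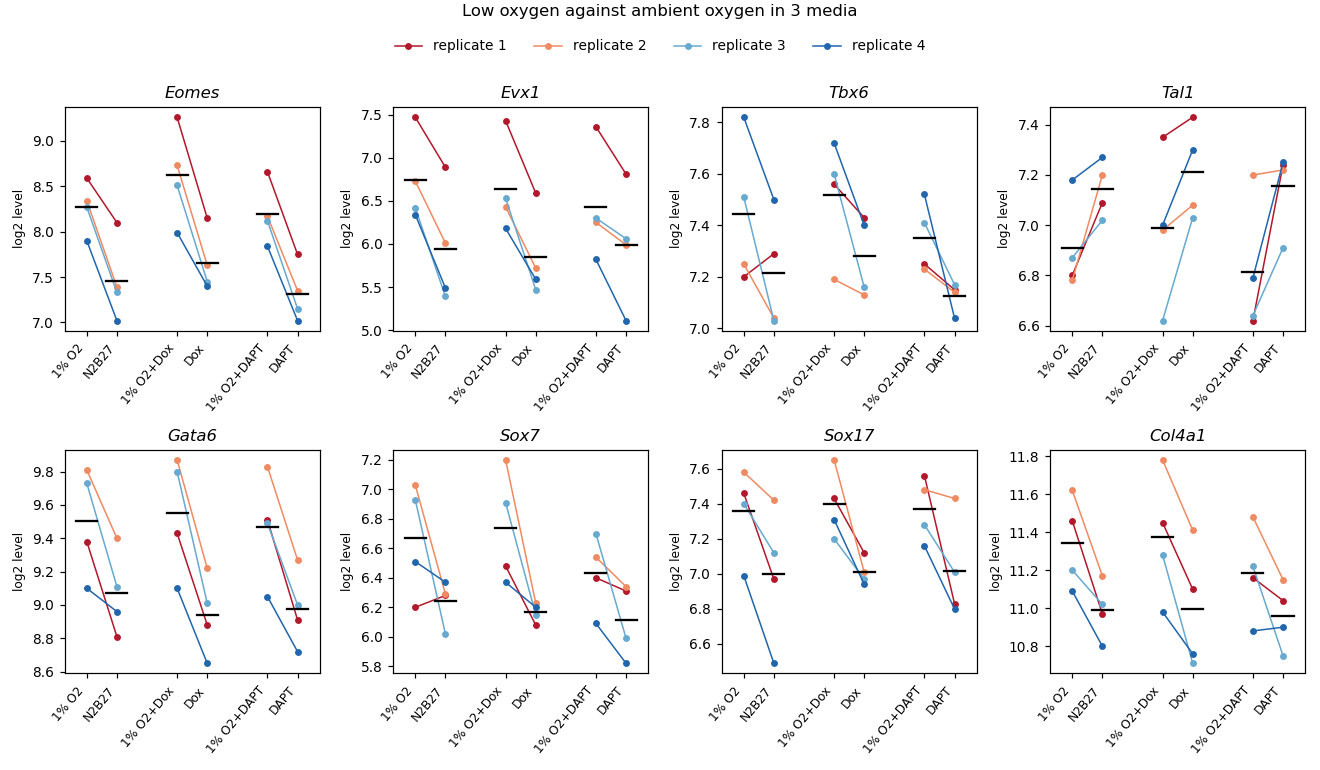
Log2 level of the 8 members called in the mean over 3 media and given a fold change, under 1% oxygen (left of each pair) and at ambient oxygen (right) in N2B27, with doxycycline and with DAPT. Points are samples, lines join the same replicate number, and black bars are group means. All 12 lines of Eomes, Evx1, Gata6 and Sox17 rise toward 1% oxygen and all 12 of Tal1 fall.

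Among endoderm regulators, Gata6, an early regulator of primitive endoderm, had 9.38, 9.81, 9.73 and 9.10 in 1% O2 and 8.81, 9.40, 9.11 and 8.96 in N2B27 (0.43 ± 0.21, adjusted p = 0.362; 0.000684 with the block). Over the 3 media its lowest, median and highest levels were 9.05, 9.50 and 9.87 under 1% oxygen and 8.65, 8.98 and 9.40 at ambient oxygen. The rise was 1.43-fold (0.51 ± 0.12, adjusted p = 0.00325), in 12 of 12 pairs. Replicate 2 was the highest of its group throughout and replicate 4 the lowest under 1% oxygen, and the groups overlapped in each of the 3 media.

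Sox7 had 6.20, 7.03, 6.93 and 6.51 in 1% O2 and 6.28, 6.29, 6.02 and 6.37 in N2B27 (0.43 ± 0.18, adjusted p = 0.253; 0.036 with the block). With doxycycline it had 6.48, 7.20, 6.91 and 6.37 in 1% O2+Dox and 6.08, 6.23, 6.15 and 6.20 in Dox, where it was above background in 4 of 4 and 0 of 4 samples, at least 1.43-fold higher under 1% oxygen (adjusted p = 0.0781; 0.00564 with the block). Over the 3 media it was higher in 11 of 12 pairs and above background in 10 of 12 samples under 1% oxygen, against 5 of 12 at ambient oxygen (0.44 ± 0.10, adjusted p = 0.00365).

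Sox17 had 7.46, 7.58, 7.40 and 6.99 in 1% O2, against 6.97, 7.42, 7.12 and 6.49 in N2B27 (0.36 ± 0.17, adjusted p = 0.324; 0.0272 with the block). Over the 3 media its lowest, median and highest levels were 6.99, 7.41 and 7.65 under 1% oxygen and 6.49, 6.99 and 7.43 at ambient oxygen, higher in 12 of 12 pairs (0.36 ± 0.10, adjusted p = 0.00797). Sox7 and Sox17 belong to the same subfamily of Sox factors. Gata4 (0.01) and Hnf4a (0.02) of the same lineage group did not pass in either fit.

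Col4a1, which encodes a collagen chain of basement membranes, had 11.46, 11.62, 11.20 and 11.09 in 1% O2 and 10.97, 11.17, 11.02 and 10.80 in N2B27 (0.35 ± 0.19, adjusted p = 0.429; 0.0064 with the block). Over the 3 media it was higher under 1% oxygen in 11 of 12 pairs (0.32 ± 0.11, adjusted p = 0.0407). In the model without the block the call was lost in 14 of 24 fits without 1 sample, with adjusted p up to 0.0794 (without 1% O2+Dox replicate 2). The other measured endoderm products, Dab2 (0.02), Lama1 (-0.04), Lamb1 (0.07) and Sparc (0.00), did not pass in either fit.

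In the trophectoderm group, Ascl2 passed the test in the mean over the 3 media (adjusted p = 0.0021) with 12 of 12 pairs higher under 1% oxygen. It had 6.39, 6.37, 5.95 and 6.12 in 1% O2 and 5.25, 5.92, 4.93 and 5.96 in N2B27, and was above background in 5 of 12 samples under 1% oxygen and in 0 of 12 at ambient oxygen, so no fold is given. It entered the test through those 5 samples alone, so its call is no independent result. Krt8 had 11.81, 11.50, 10.46 and 9.88 in 1% O2 and 11.42, 10.93, 10.04 and 9.64 in N2B27. Its change over the 3 media was 0.28 ± 0.35, in 11 of 12 pairs (adjusted p = 0.723; 1.41e-05 with the block). The spread of Krt8 between replicate numbers was far wider than its change.

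Gata3 and Tfap2c passed with the block only, both lower under 1% oxygen. Gata3 spanned 5.73, 6.29 and 6.50 (lowest, median and highest) under 1% oxygen and 6.09, 6.42 and 6.89 at ambient oxygen (-0.21 ± 0.10, adjusted p = 0.151; 0.0166 with the block). Tfap2c spanned 11.27, 11.80 and 12.25 under 1% oxygen and 11.46, 11.92 and 12.48 at ambient oxygen (-0.18 ± 0.10, adjusted p = 0.238; 6.09e-05 with the block), lower in 12 of 12 pairs. Its other probes gave -0.22 ± 0.08 (adjusted p = 0.0536 over all probes) and -0.37 ± 0.08 (adjusted p = 0.0019), so 1 of the 3 probes passed without the block. Cdx2 (0.06) and Krt18 (0.03) did not pass in either fit.

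Of the blood and vascular genes, Tal1 had 6.80, 6.78, 6.87 and 7.18 in 1% O2, against 7.09, 7.20, 7.02 and 7.27 in N2B27. It was lower under 1% oxygen in 12 of 12 pairs over the 3 media (-0.27 ± 0.08, adjusted p = 0.0236). Gata2, which fell with Tal1 in the medium change, differed by 0.07 under low oxygen and did not pass in either fit. Lmo2 spanned 6.06, 6.83 and 7.37 (lowest, median and highest) under 1% oxygen and 6.21, 6.57 and 6.97 at ambient oxygen, and passed with the block only (0.20 ± 0.13, adjusted p = 0.362; 0.0367 with the block), with 0.41 over replicates 1 and 2 and -0.01 over replicates 3 and 4.

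The N2B27 samples served as controls for the medium, doxycycline, DAPT and low oxygen comparisons, so a low or high value there enters all of them. In N2B27, Evx1 was -0.76 against ESC while 1% O2 was 0.79 against N2B27, and Sox7 was -0.44 and 0.43. The low oxygen comparisons within Dox and within DAPT do not use those samples. There Evx1 differed by 0.80 and 0.44, Gata6 by 0.61 and 0.49 and Sox17 by 0.39 and 0.35. Sox7 differed by 0.32 within DAPT. Within Dox it was at least 1.43-fold higher under 1% oxygen, as 0 of 4 Dox samples were above background.

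The promoters of Eomes, Col4a1 and Ascl2 are shown as examples from the members called under low oxygen (Ascl2 with the limit given above). The 250 bases before the start site are given in the direction of the gene (RefSeq, GRCm38.p6). Capitals mark ACGTG or GCGTG on either strand, the core of the hypoxia response element, with the other strand read as CACGT or CACGC. The cores can overlap each other where they stand on both strands.
Eomes (chr9:118477939-118478188, plus strand): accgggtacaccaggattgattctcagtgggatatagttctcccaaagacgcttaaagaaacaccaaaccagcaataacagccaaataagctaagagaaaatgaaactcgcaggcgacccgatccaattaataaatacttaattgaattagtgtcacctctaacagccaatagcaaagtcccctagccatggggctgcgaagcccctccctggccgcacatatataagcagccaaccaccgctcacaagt
Col4a1 (chr8:11312827-11313076, minus strand): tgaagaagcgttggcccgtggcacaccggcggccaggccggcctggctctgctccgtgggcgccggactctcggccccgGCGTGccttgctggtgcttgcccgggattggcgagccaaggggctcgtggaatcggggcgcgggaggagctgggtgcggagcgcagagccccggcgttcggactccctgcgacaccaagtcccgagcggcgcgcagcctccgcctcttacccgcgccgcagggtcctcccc
Ascl2 (chr7:142969265-142969514, minus strand): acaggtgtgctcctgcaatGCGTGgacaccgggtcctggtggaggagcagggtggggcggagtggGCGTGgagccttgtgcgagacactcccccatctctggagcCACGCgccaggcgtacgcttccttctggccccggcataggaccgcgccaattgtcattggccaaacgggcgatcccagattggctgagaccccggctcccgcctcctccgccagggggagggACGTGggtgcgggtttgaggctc
The Eomes window held 0 cores, that of Col4a1 held 1 and that of Ascl2 4. Of the 9 members called in the mean over the 3 media, 6 had a promoter in the table (Eomes, Evx1, Tbx6, Tal1, Col4a1 and Ascl2), and 2 of these held a core. Both of these, Col4a1 and Ascl2, are among the promoters shown, while those of Evx1, Tbx6 and Tal1 held none and are not shown. Of the 27 members with a promoter 11 held a core in at least 1 of their promoters, against 38.6% of all 32851 promoters. Here and for the motif below, members are counted as genes and the share is of promoters. A gene with several promoters can match more easily, so the 2 are not of the same unit. ACGTG alone stood in 16.6% of all promoters and GCGTG in 28.2%. TGGGAA, the core of the site of the Notch partner RBPJ, stood on either strand in 21.6% of all promoters and in those of 7 members, Tal1, Evx1 and Wnt3 among them. Such matches describe letters in a window and no binding.

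Other genes of the lineages under low oxygen, in the mean over the 3 media, were called as follows without the block. There 7.76% of all tested genes were higher and 9.83% lower. Of 21 mesoderm genes, Isl1, a LIM homeobox gene, was higher (0.28 ± 0.07, adjusted p = 0.00549) and Etv2, an ETS factor that starts blood and vessel fates, was lower (-0.66 ± 0.12, adjusted p = 0.000211). Of 16 endoderm genes 4 were higher and 0 lower: Otx2 (1.30 ± 0.10, adjusted p = 3.43e-10), the basement membrane gene Nid1 (0.39 ± 0.13), Cxcr4 (0.30 ± 0.06) and the apolipoprotein gene Apoa1 (0.23 ± 0.06). Of 16 trophectoderm genes 3 were higher and 2 lower, among them the placental homeobox gene Dlx3 (1.99 ± 0.16, adjusted p = 8.46e-10), the keratin gene Krt19 (1.61 ± 0.34, adjusted p = 0.00146), the AP-2 gene Tfap2a (0.39 ± 0.07) and Htra1 (-0.34 ± 0.08). Krt19 was above background in 10 of 12 samples under 1% oxygen and 6 of 12 at ambient oxygen, Dlx3 in 12 and 10, and Isl1 in 12 and 6. With the block 4 mesoderm genes were higher and 5 lower, 9 endoderm genes higher and 3 lower, and 5 trophectoderm genes higher and 3 lower. In that fit 17% of all tested genes were higher and 24.5% lower. The median log2 fold change was -0.02 for the mesoderm genes (8 of 21 above 0), 0.16 for endoderm (12 of 16) and -0.04 for trophectoderm (7 of 16). Over all tested genes it was -0.02, so the wider mesoderm and trophectoderm lists showed no general rise.

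Markers of other cells were read beside these changes. The ES cell markers had 0 of 10 members called in the mean over the 3 media (4 higher and 2 lower with the block). Of 8 tested fibroblast markers, Pdgfrb was higher (0.45 ± 0.09, adjusted p = 0.000785) and Thy1 lower (-0.49 ± 0.16, adjusted p = 0.0403) under 1% oxygen (3 higher and 1 lower with the block). The summed signal of the fibroblast list lay between 11820 and 26601 in 1% O2, between 10343 and 23890 in N2B27 and between 13336 and 27624 in ESC, ranges that overlap. The summed signal of the neural list lay between 215 and 482 in 1% O2, between 352 and 459 in Dox and between 220 and 349 in N2B27. Such sums are of linear signals before normalization, so bright genes weigh most. The part of these markers in the members' changes was not tested.

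Some members differed more between replicate numbers than between treatments. Krt8 and Krt18 were higher in replicates 1 and 2 than in replicates 3 and 4 in all 7 groups, and Lamb1 and Sparc were lower. In N2B27, Krt18 had 10.42, 9.96, 8.55 and 8.63 in replicates 1 to 4 and Lamb1 had 7.49, 7.52, 8.64 and 8.46. Over the groups the difference of replicates 1 and 2 from replicates 3 and 4 had a median of 1.47 for Krt8 (1.33 to 1.62), 1.54 for Krt18 (1.33 to 1.85), -1.27 for Lamb1 (-1.49 to -0.94) and -0.83 for Sparc (-0.99 to -0.46) on the log2 scale. Each of these medians is larger in size than the change of the same gene in any of the 10 comparisons of groups.

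In all, 9 of the 24 members were higher in replicates 1 and 2 in all 7 groups and 3 lower, and 6 had a median difference over 0.5 on the log2 scale, in either direction. These counts were not made over all tested genes, so they do not set the members apart from other genes. Replicates 1 and 2 also stood apart from 3 and 4 over all tested genes, on the main principal component (51.5% of the variance). The summed signal of the fibroblast list moved with the same sets, with a lowest, median and highest value of 14264, 21696 and 27624 in replicates 1 and 2 and of 10343, 11867 and 14156 in replicates 3 and 4. That of the ES cell list overlapped, with medians of 35863 and 33941. Both sums are of linear signals before normalization, so bright genes weigh most. Of the 12 fibroblast markers, 4 were above background on all samples, so the sum does not measure a share of cells. The labels do not say what sets the replicate numbers apart, and the part of these markers in the members' levels was not tested.

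**Figure D5:**
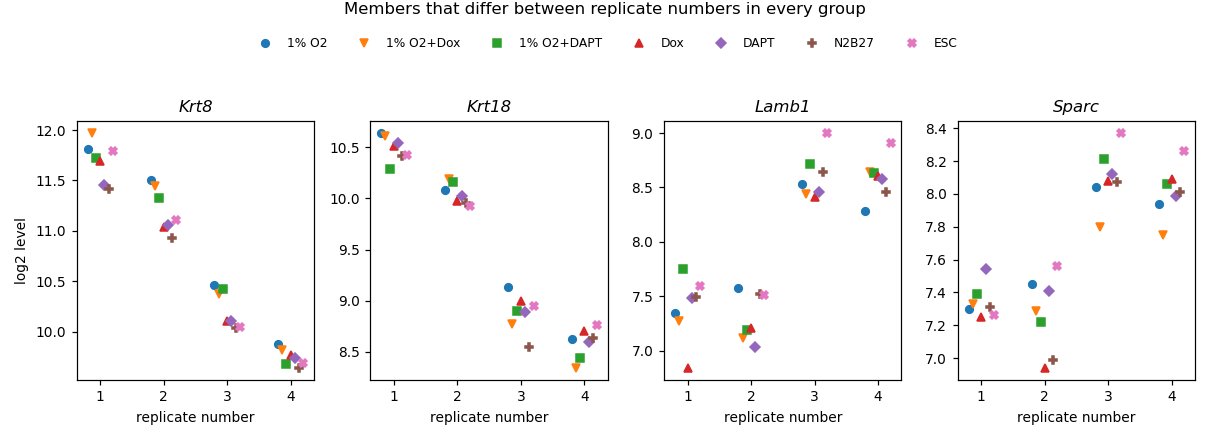
Log2 level of Krt8, Krt18, Lamb1 and Sparc by replicate number, with 1 symbol per group and 1 sample per point. Replicates 1 and 2 lie above replicates 3 and 4 for both keratin genes and below them for Lamb1 and Sparc in all 7 groups.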

How the data were processed

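RNA of 28 samples was measured on 30 Illumina arrays. The deposited table gives linear intensities of probes that the authors had not normalized across arrays (per the file headers), made with BeadStudio per the submitters' processing notes (no version given). The authors' processed intensities were deposited as well, with a floor of 50 at which 53.8% to 56% of values lie and a median of 50 on every array. Each of its 30 columns matched its own array of the first table best and, over probes above the floor, was linear in it (Pearson r across probes at least 0.999), so the scale is linear with no centring of genes. How arrays were scaled to each other there is unknown. It served as an alternative.

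Intensities were corrected with normexp (offset 0) in limma 3.58.1 (R 4.3.3), taken to log2 and quantile normalized. The repeat arrays of Dox samples 3 and 4 were averaged with the first array of each, from which they differed by an SD of 0.212 and 0.232. Gene symbols came from the platform annotation held by GEO, with symbols updated by Entrez number for 20967 of them. In all 20983 probes had 1 symbol, 1 several and 3627 none. Probes above their array's median on at least 4 samples were kept (12259), and the highest-mean probe stood for each of 9809 genes. As the table has no detection p-values, the background limit was the 98th percentile of each array's negative signals mirrored around 0. Where a whole group lay at or below it, a fold is a lower bound, the bright group's mean against, for each array of the dim group, its limit or the probe's value where that is higher.

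One model over all samples (lmFit and eBayes, 21 residual degrees of freedom, two-sided) gave 12 contrasts, with Benjamini-Hochberg adjustment within each over all genes tested. Every adjusted p printed comes from this limma model or, where said, from the same model with the replicate number as a block. Deviations from the group means of same-numbered samples correlated at 0.704 to 0.836 in every pair of groups, and 28 of 28 samples correlated best with their own number, so the numbers were taken to pair the samples. The pairing comes from this check, as the labels give only the number. Replicates 1 and 2 stood apart from 3 and 4 on the main principal component (51.5% of the variance). The script was tested on simulated data.

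The members and gene lists were chosen with earlier results of these data known. Values per sample are given for members called without the block in any contrast, or with it in the medium, doxycycline or low oxygen contrast in N2B27 or in a pooled contrast. Others are given by range and counts. Further lineage genes are named where called, at most 4 per list and contrast. Alternatives were the replicate block, each pair of replicates alone, an offset of 50, median scaling, no filter, a filter at the background limit, the authors' processed values, all probes, first arrays only and leaving out each sample. All of these but the block itself were fitted without the block, so they ignore the pairing of samples by number. Promoters come from RefSeq (GRCm38.p6), searched on both strands for the cores named in the text.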

Additional observations from a re-analysis of the deposited data

Results flagged for a closer look

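Of 119 sets of 4 replicates (17 members in 7 groups), 4 held a sample that stood apart from the other 3 by more than Dixon's critical share of the range of the 4. Chance gives this in about 1 in 20 sets. Tal1 was lowest in DAPT replicate 3 at a log2 level of 6.91, with the next at 7.22. Gata2 was lowest in DAPT replicate 4 at 7.85 (next 8.09) and in 1% O2+DAPT replicate 4 at 7.62 (next 8.25). Gsc was highest in DAPT replicate 1 at 6.04 (next 5.86), with all 4 below the background limit.

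Krt8 moved in opposite directions with DAPT at the 2 oxygen levels. Its log2 fold change was 0.09 in DAPT against N2B27, higher in 4 of 4 pairs, and -0.12 in 1% O2+DAPT against 1% O2, lower in 4 of 4 pairs. The interaction was -0.21 ± 0.85 SE (limma, adjusted p = 1; 0.998 with the replicate block), so the difference did not pass the test.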

How the results depend on the processing

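With the replicate block the members called numbered 7 for N2B27 against ESC (2 without it), 2 for Dox against N2B27 (0), 2 for 1% O2+Dox against 1% O2 (0), 8 for 1% O2 against N2B27 (0), 9 for 1% O2+Dox against Dox (1), 7 for 1% O2+DAPT against DAPT (1), 14 for low oxygen over 3 media (9) and 3 for doxycycline over both oxygen levels (0), and the DAPT and interaction counts stayed at 0. In the medium comparison the count was 0 with replicates 1 and 2 alone, with median scaling, with no filter on dim probes and with all probes tested, and 1 with replicates 3 and 4 alone or with the authors' processed values. The Eomes call in DAPT gave 0 with replicates 1 and 2 alone, an offset of 50, median scaling, no filter, the authors' values or all probes, and that in Dox 0 with either pair of replicates alone or the authors' values. With replicates 3 and 4 alone 1 member was called in N2B27 under low oxygen and 4 in the mean over 3 media. For the alternatives other than the block, shares over all tested genes were not counted, so these counts have no background beside them. Leaving out 1 sample gave 0 to 0 members in the medium comparison, 0 to 1 under low oxygen in N2B27, 0 to 3 in Dox, 0 to 1 in DAPT and 6 to 9 over 3 media. Of the 50 fold changes of single members checked, Lmo2 over 3 media turned to -0.01 with replicates 3 and 4 alone, and Krt8 in 1% O2+Dox against Dox turned to -0.11 (without 1% O2+Dox replicate 1) and -0.05 (without Dox replicate 4), 2 of 648 fits without 1 sample (range for that Krt8 change -0.11 to 0.61). Under the authors' values the low oxygen mean was 0.35 for Evx1 and 0.39 for Sox7, no longer called, and Ascl2, at the floor of 50 on 23 of 28 samples there, was not called either. The filter at the background limit and first arrays only changed no call. Median scaling ended the call of Col4a1 over 3 media, an offset of 50 that of Evx1, and no filter those of Evx1, Tbx6 and Col4a1. The causes were not tested. Signal over background limits Gsc, Lama1 and Ascl2 most, above it on 9, 6 and 5 of 28 samples.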

Other observations

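Some lineage genes outside the 37 members also differed between the oxygen levels within a medium. Otx2, a regulator of epiblast and anterior visceral endoderm, was called higher under 1% oxygen in each medium: 1.33 ± 0.17 SE in N2B27, 1.30 ± 0.17 with doxycycline and 1.26 ± 0.17 with DAPT (limma, adjusted p = 8.73e-06, 1.26e-05 and 2.04e-05). Dlx3, a homeobox gene of the placental labyrinth, was likewise called in each medium (2.05 ± 0.27, 1.96 ± 0.27 and 1.95 ± 0.27). These changes of single genes were larger than any change of the 24 tested members. Etv2, a regulator of blood and endothelial mesoderm, was called lower under 1% oxygen in N2B27 (-0.74 ± 0.20 SE, adjusted p = 0.0384 in limma). In DAPT medium, 1% oxygen gave higher levels of Cxcr4 (0.45 ± 0.10, adjusted p = 0.0106), Tfap2a (0.47 ± 0.12, adjusted p = 0.0287) and the fibroblast marker Pdgfrb (0.65 ± 0.16, adjusted p = 0.0146). These genes were not called in the other media without the replicate block. The interactions of 1% oxygen with doxycycline and with DAPT, which test the difference from N2B27, called 0 genes of their lists with or without the block. At an unadjusted p under 0.05 in limma without the block there were 0 genes for doxycycline and 1 trophectoderm gene for DAPT, where 0.581% and 0.591% of all tested genes had such a p. With the block in limma, Etv2 was also called with doxycycline (-0.59, adjusted p = 0.000459) and with DAPT (-0.65, adjusted p = 0.000164). Cxcr4 was also called in N2B27 with the block (0.30, adjusted p = 0.031). Tfap2a was then called in N2B27 (0.34, adjusted p = 0.0413) and with doxycycline (0.37, adjusted p = 0.0281), and Pdgfrb likewise (0.30, adjusted p = 0.0123, and 0.40, adjusted p = 0.00129).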
